A study of Mus musculus with 6 samples.

Results

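The 44 genes described here mark the cells that line blood and lymph vessels. They were taken from a deposited mouse colon expression table of 25339 genes by their symbols, and all 44 are in it. They fall into 25 genes used as markers of endothelium in general (pan-endothelial), 11 genes associated with vascular endothelial growth factor (VEGF) signalling or with the tip cells that lead a vessel sprout, and 8 genes of lymphatic endothelium. RNA sequencing of colon from mice was deposited as 6 libraries, 3 from mice that received DMSO, the solvent, and 3 from mice that received lenvatinib. Lenvatinib is a small molecule that inhibits the VEGF receptors and also the FGF and PDGF receptors, KIT and RET. The title of the series concerns colitis and the traffic of B cells through intestinal vessels, but the labels give only tissue and treatment, and strain, age, sex, dose, duration and whether colitis was induced are not labelled for any group. In the labels each library is a biological replicate, with no statement of the animal behind it.

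Endothelial cells carry receptor tyrosine kinases for VEGF and for the angiopoietins, and VEGF signalling keeps many capillaries alive and fenestrated, those of the gut mucosa among them. A sprouting vessel is led by tip cells, which make ligands and matrix proteins that the trailing stalk cells lack, and Notch signalling sorts the cells between these roles. Lymphatic endothelium depends on its own transcription factor, PROX1, and on VEGF-C and VEGF-D.

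Values are FPKM, fragment counts scaled to the length of the gene and to the depth of the library, so levels of different genes can be set side by side. The 6 libraries held 37870040 to 39489879 reads in genes, recovered from the steps of the FPKM values. Libraries 2 and 3 of each group were close to each other: the squared deviation between their reads was 2.30 to 2.53 times that of counting noise, against 9.93 to 21.7 times for the other pairs. Whether libraries 2 and 3 of a group came from separate animals was not tested and is not labelled; if they did not, each n of 3 below rests on 2 animals. DMSO library 1 differed from all others in sex-linked transcripts, with Xist at 0.00147 FPKM against 15.9 to 19.8 elsewhere, and the Y-linked Ddx3y at 6.54 FPKM against a listed 0. By these transcripts DMSO library 1 has the pattern of male tissue and the other 5 that of female tissue, so the DMSO group mixes both and the lenvatinib group does not. Lenvatinib library 1 differed from lenvatinib libraries 2 and 3 in many endothelial genes. Colon epithelial markers summed to 9601 to 11219 FPKM in the DMSO libraries and 9118 to 12032 in the lenvatinib libraries. Most of this sum came from 1 gene, which averaged 9150 FPKM. Of the 7 markers, 2 were lower and 1 was higher in every lenvatinib library, against 11.6% and 8.36% of all genes above 0. Genes of small intestinal epithelium summed to 9.06 to 12.1 FPKM in the DMSO libraries and to 306 to 413 in the lenvatinib libraries. Of these 9 genes, 7 were higher in every lenvatinib library, against 8.36% of all genes above 0. What part this had in the endothelial results was not tested.

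Endothelium was well represented. Pecam1, the junctional adhesion molecule CD31, lay between 13.6 and 20.5 FPKM in the 6 libraries, and Cdh5, the vascular cadherin, between 4.99 and 6.19. The lymphatic factor Prox1 was low, at 0.245 to 0.41 FPKM. None of the 44 genes was listed at 0 in any library, and 31 of them averaged 1 FPKM or more across all libraries, the minimum set for the test. Their levels ran from Stab2, at 0.0518 to 0.127 FPKM, to Plvap, at 25.8 to 44.7 FPKM.

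**Figure D1:**
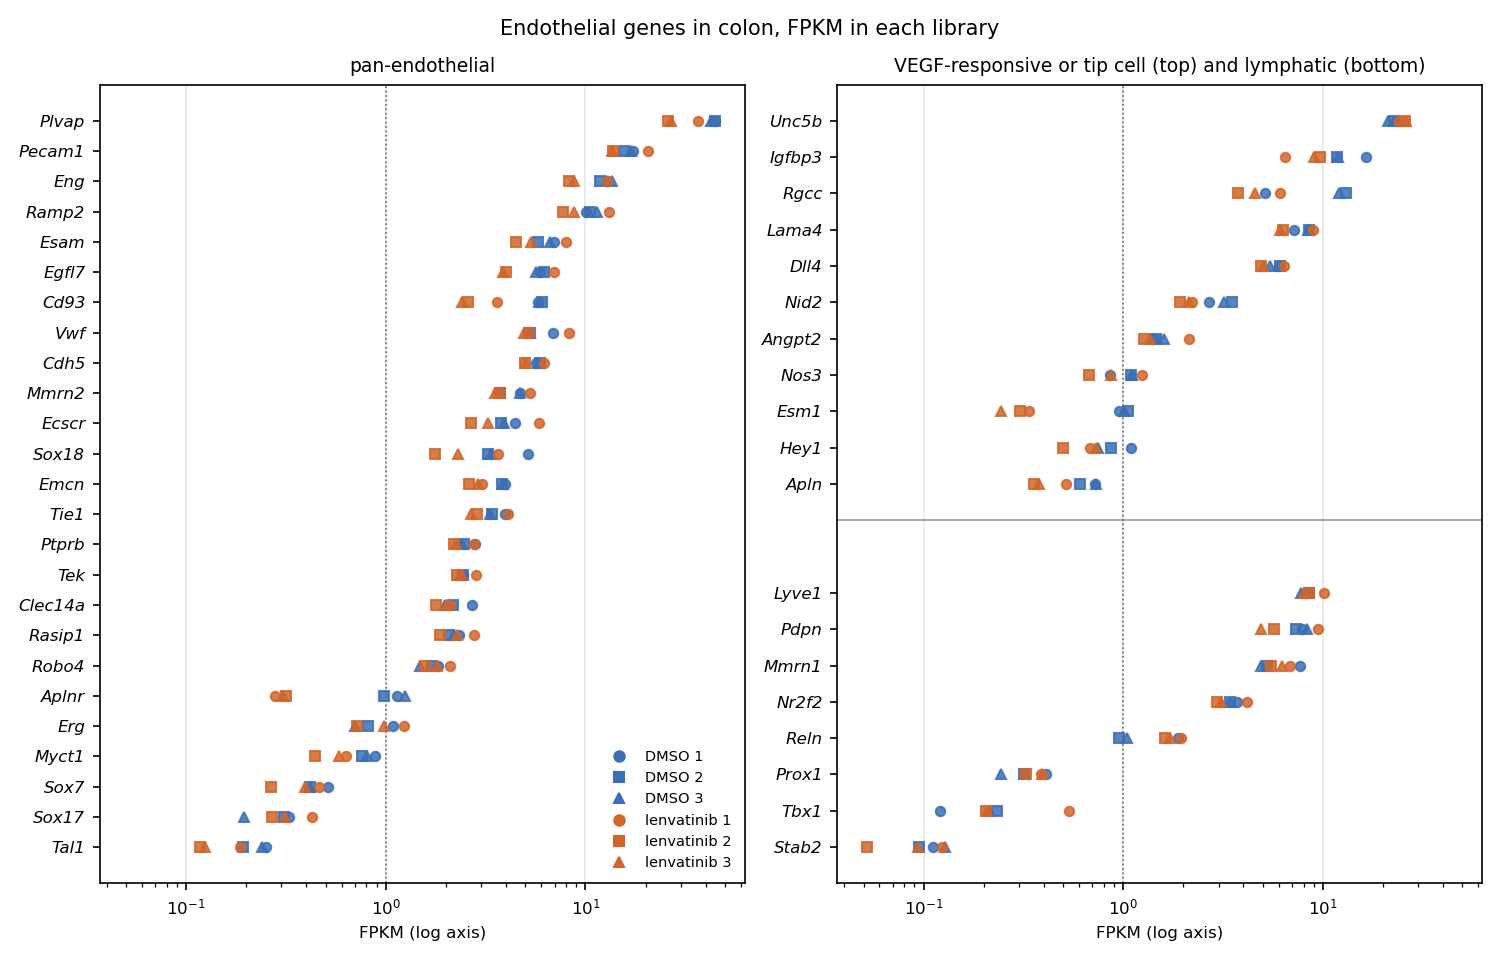
Each point is 1 library's FPKM (log axis) for 1 gene, with pan-endothelial genes in the left panel and VEGF-responsive or tip cell genes above lymphatic genes in the right panel; the dotted line marks 1 FPKM. Aplnr, Esm1 and Cd93 show a gap between the DMSO points and the lenvatinib points, whereas Pecam1, Tek and the lymphatic genes show none.

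Few endothelial genes differed between the groups by more than the spread between libraries. Cd93 passed the test across all genes at 48.6% of its DMSO level. Esm1 and Aplnr, both too low for the minimum of 1 FPKM, had lenvatinib levels of 29.3% and 26.7% of DMSO and passed when their reads were tested. Markers of endothelium at large, such as Pecam1, Cdh5 and Tek, overlapped between the groups, and so did all 8 lymphatic genes. In bulk colon, fewer endothelial cells and less RNA of a gene per cell cannot be told apart.

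Counted over the list, 1 of the 31 genes tested passed in the lower direction and 0 in the higher (limma on log2(FPKM + 1), Benjamini-Hochberg adjustment over 11774 genes, threshold 0.05). Among all genes tested, 0.934% passed in the lower direction and 1.1% in the higher, so the share of endothelial genes is not a result about the list. At an unadjusted p below 0.05, 6 of the 31 were lower and 1 was higher, where 14.5% of all genes tested were lower and 7.49% higher. The median log2 fold change of the 31 was -0.11, against -0.07 for all genes tested, and 22 of the 31 were negative against 63.9% of all genes. In 11 of the 44 genes every lenvatinib library lay below every DMSO library, compared with 11.6% of all genes above 0. In 1 gene, Unc5b, every lenvatinib library lay above, compared with 8.36% of all genes. With 3 libraries a group the exact permutation test cannot give a two-sided p below 0.1, the value each of these 12 genes had.

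**Figure D2:**
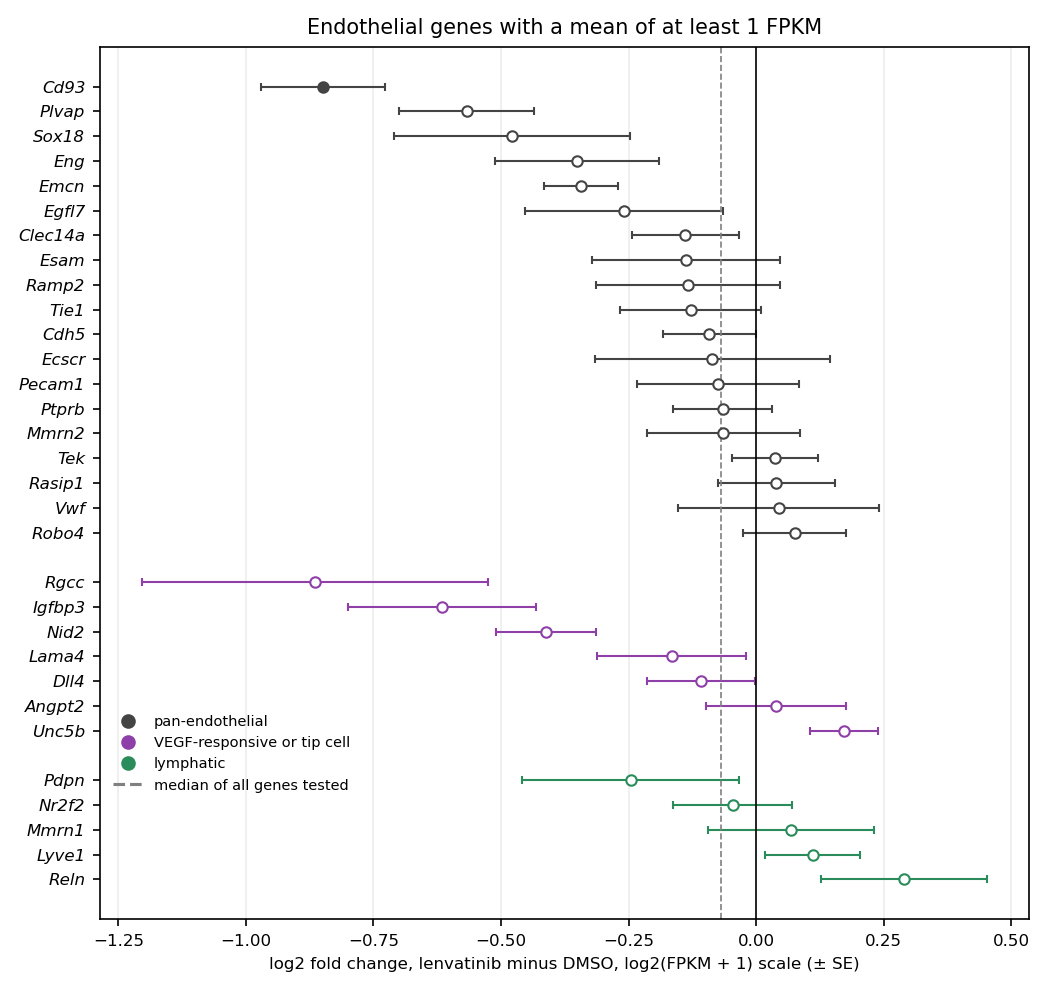
Points are log2 fold changes, lenvatinib relative to DMSO after log2(FPKM + 1), with bars of 1 standard error, for the 31 genes tested; the filled point passed the test and the dashed line is the median of all genes tested. Cd93, at -0.85, is the filled point, and Pecam1, Cdh5 and Tek lie close to 0.

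Promoter sequences are shown for 4 genes that the results turn on, Esm1 and Emcn, lower in every lenvatinib library, and Tek and Dll4, whose groups overlapped. Each is the 250 bases before the annotated start from RefSeq on mouse build GRCm38.p6, written 5′ to 3′ on the plus strand, which is the gene's own strand. Capitals mark the letters TTCCTG, the reverse complement of CAGGAA, a motif with the GGAA core that ETS factors such as ERG, a member of this list, bind. The windows lie upstream of the genes' first exons, at chr13:113209409-113209658 for Esm1, chr3:137340828-137341077 for Emcn, chr4:94739039-94739288 for Tek and chr2:119325534-119325783 for Dll4.
Esm1: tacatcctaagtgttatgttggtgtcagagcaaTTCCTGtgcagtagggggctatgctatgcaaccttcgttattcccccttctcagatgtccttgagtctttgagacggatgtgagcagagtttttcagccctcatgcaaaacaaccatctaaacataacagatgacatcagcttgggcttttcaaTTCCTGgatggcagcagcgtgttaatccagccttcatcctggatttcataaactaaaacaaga
Emcn: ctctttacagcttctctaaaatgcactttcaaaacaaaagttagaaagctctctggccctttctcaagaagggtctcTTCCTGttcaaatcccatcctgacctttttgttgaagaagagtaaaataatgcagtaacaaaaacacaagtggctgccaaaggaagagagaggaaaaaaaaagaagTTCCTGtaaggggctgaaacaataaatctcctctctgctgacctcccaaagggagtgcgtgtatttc
Tek: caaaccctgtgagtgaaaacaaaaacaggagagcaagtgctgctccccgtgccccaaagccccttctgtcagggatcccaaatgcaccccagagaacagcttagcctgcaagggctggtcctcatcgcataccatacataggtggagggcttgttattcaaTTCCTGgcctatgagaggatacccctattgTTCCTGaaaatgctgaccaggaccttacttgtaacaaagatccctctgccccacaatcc
Dll4: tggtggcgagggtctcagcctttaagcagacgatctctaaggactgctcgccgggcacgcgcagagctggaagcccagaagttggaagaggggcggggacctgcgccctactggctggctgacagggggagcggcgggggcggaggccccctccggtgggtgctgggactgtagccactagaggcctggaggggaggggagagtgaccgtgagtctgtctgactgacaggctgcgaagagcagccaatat
Esm1, Emcn and Tek each held the motif at 2 places and Dll4 at 0. Of all promoters, 4.17% held 2 or more matches, counted on either strand. Whether the motif differs between the lower and the overlapping genes of the list was not tested. Of the 24 endothelial genes with a promoter in the RefSeq table, 13 held it on either strand in at least 1 promoter. Counted by promoter, 14 of their 31 held it (45.2%), against 25.7% of all 32851 promoters. The motif and the 4 genes were chosen after the sequences and values had been seen, and a match is a string of letters, not a site.

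Among the pan-endothelial genes averaging 1 FPKM or more, Cd93 was the 1 that passed. It encodes a lectin-like transmembrane glycoprotein of endothelial cells that binds the matrix protein multimerin-2. Cd93 stood at 5.79, 6.06 and 5.85 FPKM in DMSO libraries 1 to 3 and at 3.59, 2.59 and 2.41 FPKM in lenvatinib libraries 1 to 3. The groups did not overlap, and lenvatinib library 1 was the nearest to DMSO. The mean fell from 5.90 ± 0.141 to 2.86 ± 0.636 FPKM (SD, n = 3 libraries each), a log2 fold change of -0.85 (SE 0.122, limma adjusted p = 0.0272). This call changed with the libraries included. Leaving out any library other than lenvatinib 1 gave a limma adjusted p of 0.0657 to 0.162. Leaving out lenvatinib 1 gave 0.000465, in a fit where 28.2% of all genes tested passed in the lower direction. Averaging libraries 2 and 3 of each group gave 0.561. Across these fits the log2 fold change lay between -0.98 and -0.77. Testing all 23951 genes above 0 gave an adjusted p of 0.0596.

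Macrophages and platelets can also carry Cd93, and the summed levels of their markers were lower in every lenvatinib library. The 9 macrophage markers summed to 344 to 391 FPKM in the DMSO libraries and 144 to 199 in the lenvatinib libraries. Of these 9, 8 passed in the lower direction with limma, against 0.934% of all genes tested. The 7 platelet markers summed to 17.8 to 23.2 and 7.85 to 11.03 FPKM, and 5 of the 7 were below 1 FPKM in every library. Only 3 of the 7 were lower in every lenvatinib library, against 11.6% of all genes above 0, and 4 overlapped. With limma 1 of the 2 tested passed in the lower direction, against 0.934% of all genes tested, so the platelet sum does not speak for each gene. No gene of either list was listed at 0 in all libraries. Their part in the difference of Cd93 was not tested.

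Partners of CD93 gave other values. Mmrn2, which encodes multimerin-2 and belongs to the list, read 4.68, 3.72 and 4.70 FPKM with DMSO and 5.25, 3.74 and 3.52 with lenvatinib, and the groups overlapped. Igfbp7, another reported ligand, read 151, 145 and 139 FPKM with DMSO and 152, 93.4 and 99.7 with lenvatinib, so only libraries 2 and 3 were low. Clec14a, the structural relative of Cd93 that binds multimerin-2 as well, overlapped too, at 2.28 ± 0.373 and 1.97 ± 0.160 FPKM (SD, n = 3 each).

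Aplnr, the receptor of the peptide apelin, had the lowest lenvatinib level relative to DMSO of the 44 genes. It stood at 1.14, 0.984 and 1.25 FPKM in the DMSO libraries and at 0.278, 0.316 and 0.304 FPKM in the lenvatinib libraries, resting on 154, 139 and 173 reads and on 38, 44 and 42 reads. All 3 lenvatinib libraries were low, library 1 included, with an SD of 0.0192 FPKM between them. Its mean over the 6 libraries was under 1 FPKM, so the recovered reads were tested with limma's voom over the 14611 genes with a mean of at least 20 reads, an alternative chosen after seeing the data. There the log2 fold change of Aplnr was -1.89 (SE 0.204, adjusted p = 0.0099), and it ranged from -1.98 to -1.81 with 1 library left out. The voom adjusted p was 0.0508 to 0.0723 without DMSO 2, DMSO 3, lenvatinib 2 or lenvatinib 3, and 0.169 with libraries 2 and 3 kept as pairs.

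Plvap and Emcn are proteins of fenestrated and capillary endothelium, and both were lower in every lenvatinib library without passing the test. Plvap, which forms the diaphragms of fenestrae, read 44.4, 44.7 and 42.6 FPKM with DMSO and 36.4, 25.8 and 26.8 with lenvatinib. Its log2 fold change was -0.57 (SE 0.132, limma adjusted p = 0.0986). Emcn, the sialomucin endomucin, read 3.96, 3.81 and 3.84 FPKM with DMSO and 3.03, 2.62 and 2.89 with lenvatinib, a log2 fold change of -0.34 (SE 0.0719, limma adjusted p = 0.0799). In both genes the DMSO libraries were tightly grouped and the lenvatinib libraries were spread below them.

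Myct1 and Tal1 completed the 6 pan-endothelial genes whose lenvatinib libraries were all lower. Myct1, a small membrane protein of endothelium, read 0.881, 0.763 and 0.804 FPKM with DMSO and 0.630, 0.442 and 0.586 with lenvatinib. Tal1, a transcription factor shared with blood progenitors, read 0.252, 0.193 and 0.241 FPKM with DMSO and 0.185, 0.118 and 0.124 with lenvatinib. In both genes lenvatinib library 1 was the nearest to DMSO. Neither passed in voom, with adjusted p of 0.184 and 0.202.

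The remaining 19 pan-endothelial genes overlapped between the groups. Pecam1 read 17.3, 15.6 and 16.8 FPKM with DMSO and 20.5, 13.7 and 13.6 with lenvatinib. The highest and both lowest values thus came from the same group, with lenvatinib library 1 on top. Its log2 fold change was -0.07, with a 95% interval of -0.46 to 0.31, which leaves room for a moderate change either way. Tek, the angiopoietin receptor TIE2, gave 0.04 (interval -0.17 to 0.24) and Cdh5 gave -0.09 (interval -0.31 to 0.13). Eng, the TGF-beta co-receptor endoglin, read 12.8, 11.8 and 13.6 FPKM with DMSO and 12.9, 8.27 and 8.74 with lenvatinib, so library 1 alone kept the groups from separating.

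Tie1, the orphan partner of TIE2, read 3.94, 3.41 and 3.34 FPKM with DMSO and 4.08, 2.87 and 2.68 with lenvatinib. Egfl7, a secreted protein of the vessel matrix, read 5.93, 6.20 and 5.64 FPKM with DMSO and 6.96, 3.99 and 3.88 with lenvatinib, and Ramp2, which joins the calcitonin-like receptor to make the adrenomedullin receptor, 10.1, 10.6 and 11.5 against 13.1, 7.75 and 8.76. In all 3 genes lenvatinib library 1 was above every DMSO library and lenvatinib libraries 2 and 3 below. Esam, a junctional adhesion molecule, and Ecscr, a small membrane protein of endothelium, had that order too, at 4.5 to 7.97 and 2.66 to 5.83 FPKM over the 6 libraries. So did Vwf, the clotting protein von Willebrand factor, at 4.89 to 8.31 FPKM. Ptprb, the phosphatase that acts on TIE2, overlapped without that order at 2.20 to 2.80 FPKM, as did Robo4, a guidance receptor that stabilises vessels, at 1.49 to 2.10, and Rasip1, a regulator of vessel lumen formation, at 1.87 to 2.78.

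The pan-endothelial transcription factors were low except Sox18, a factor of vessel and lymphatic development. Sox18 read 5.15, 3.26 and 3.36 FPKM with DMSO and 3.63, 1.76 and 2.31 with lenvatinib, and in both groups library 1 was the highest (log2 fold change -0.48, SE 0.231, limma adjusted p = 0.272). Its relatives Sox17 and Sox7 lay at 0.194 to 0.426 and 0.267 to 0.516 FPKM, and Erg, which maintains endothelial identity, at 0.700 to 1.24 FPKM, with overlapping groups in all 3. Their voom adjusted p values were 0.566, 0.53 and 0.722.

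The split between lenvatinib library 1 and the other two recurred. Lenvatinib library 1 was the highest of the 6 libraries in 14 of the 25 pan-endothelial genes and in 23 of the 44 genes, against 24.8% of all genes above 0. Lenvatinib libraries 2 and 3 were both below every DMSO library in 18 of the 25 and in 30 of the 44, against 30% of all genes above 0. The summed FPKM of the 25 genes was 144 to 154 in the DMSO libraries, 154 in lenvatinib library 1, and 102 and 107 in lenvatinib libraries 2 and 3. Without lenvatinib library 1, 15 of the 31 genes tested passed in the lower direction, Pecam1, Cdh5, Tie1 and Plvap among them, and 1, Unc5b, in the higher (limma, Benjamini-Hochberg). In that fit 28.2% of all genes tested passed in the lower direction and 9.85% in the higher.

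The levels of 5 general endothelial genes, Pecam1, Cdh5, Tie1, Tek and Esam, were therefore also used as a yardstick within each library, a measure chosen after seeing the data. Relative to their geometric mean, Cd93 was at 1.00, 1.13 and 1.06 in the DMSO libraries and 0.552, 0.566 and 0.511 in the lenvatinib libraries. Plvap gave ratios of 7.68, 8.33 and 7.73 with DMSO and 5.60, 5.64 and 5.67 with lenvatinib. On this scale lenvatinib library 1 no longer stood apart from libraries 2 and 3 in either gene. This did not hold for every gene. In Emcn the lenvatinib ratios were 0.465, 0.572 and 0.611, and in Igfbp3 0.990, 2.12 and 1.91. In Aplnr and Nid2 library 1 was likewise below libraries 2 and 3, while in Apln all lenvatinib libraries were close, at 0.0790, 0.0782 and 0.0798. Aplnr was at 29.1% of its DMSO ratio and Esm1 at 31.2%.

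Relative to those 5 genes, 12 of the 44 genes were lower in every lenvatinib library, against 8.34% of all genes above 0, and 5 were higher, against 6.95%. The 5 yardstick genes are themselves among the 44 and the 31 tested, and the scaling holds their average near no change. The 12 added Eng, at 81.8% of its DMSO ratio, and Sox18, at 67.9%. Hey1 was among the 11 in FPKM and overlapped here. The 5 higher were Robo4, Sox17, Rasip1, Nr2f2 and Tbx1. Cd93 was again the only gene of the 31 tested that passed (limma on the scaled values, log2 fold change -0.78, adjusted p = 0.0111), where 1.02% of all genes passed in the lower direction and 0.713% in the higher.

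**Figure D3:**
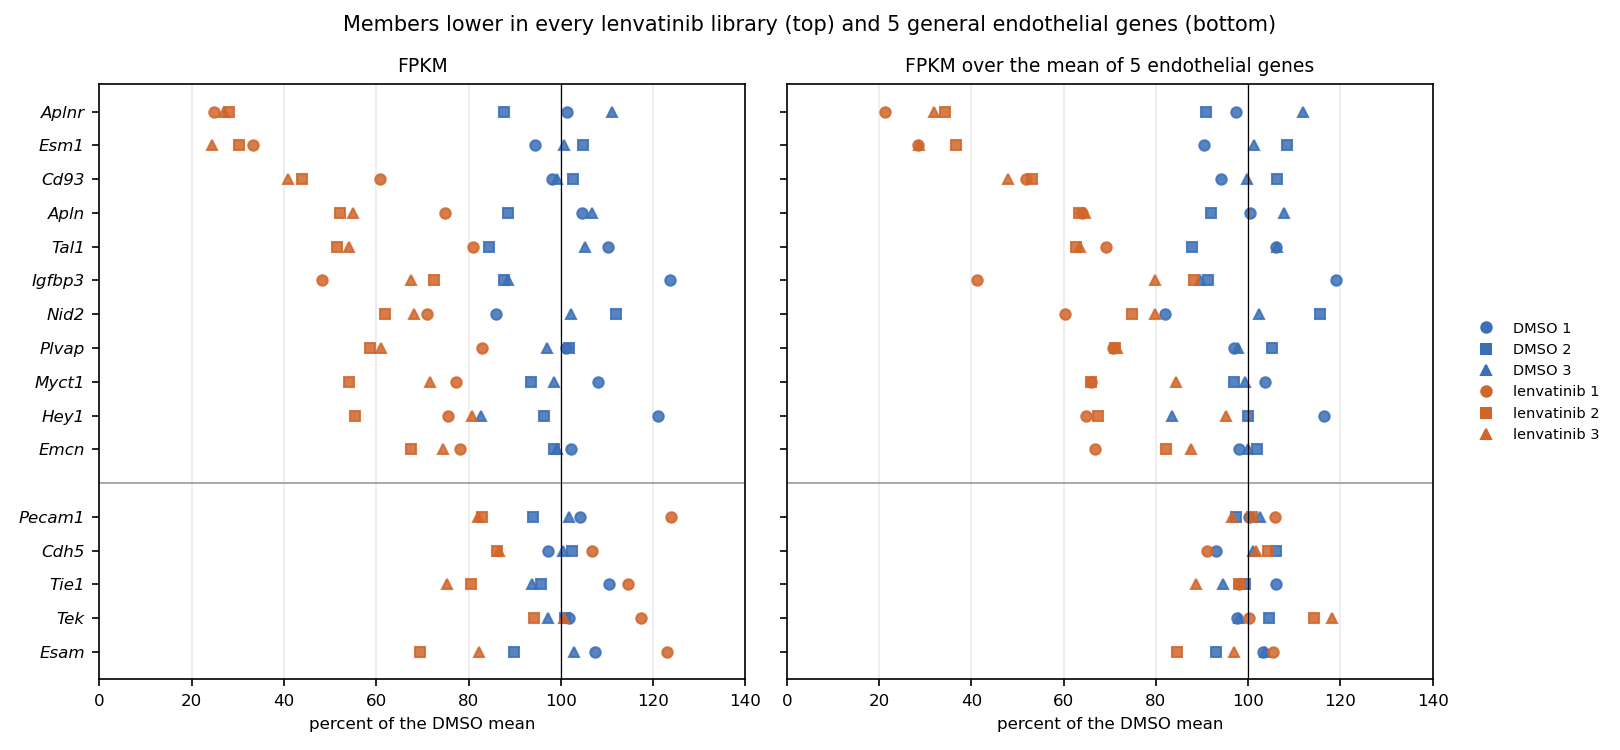
Values of each library as a percent of the DMSO mean, in FPKM (left) and relative to the geometric mean of 5 general endothelial genes (right), for the 11 genes lower in every lenvatinib library and, at the bottom, the 5 genes themselves. Lenvatinib library 1 (circle) lies to the right of libraries 2 and 3 for Cd93 and Plvap on the left and joins them on the right, where Plvap is at 71.2% of DMSO and Cd93 at 51.1%. For Emcn and Aplnr library 1 lies below libraries 2 and 3 in the right panel.

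Among the 11 VEGF-responsive or tip cell genes, 5 were lower in every lenvatinib library and 1 was higher, against 11.6% and 8.36% of all genes above 0. None of the 7 tested passed with limma; at an unadjusted p below 0.05, 3 were lower and 1 was higher, where 14.5% and 7.49% of all genes tested were. The median log2 fold change of the 7 was -0.17. Together the 11 genes summed to 66.0 to 70.6 FPKM in the DMSO libraries and 55.6 to 58.9 FPKM in the lenvatinib libraries. In this sum lenvatinib library 1, at 58.9 FPKM, lay below every DMSO library. Unc5b and Igfbp3 weighed most in the sum, averaging 23.8 and 10.9 FPKM, and in Igfbp3 lenvatinib library 1 was the lowest, at 6.44. By gene, lenvatinib library 1 was the highest of the 6 in 4 of the 11, against 24.8% of all genes above 0.

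Esm1 encodes endocan, a secreted proteoglycan made by tip cells and induced by VEGF. Esm1 read 0.951, 1.06 and 1.01 FPKM in the DMSO libraries and 0.335, 0.304 and 0.245 FPKM in the lenvatinib libraries, from 76, 88 and 83 reads and from 27, 25 and 20 reads. The groups were far apart and each was narrow. On the recovered reads its log2 fold change was -1.76 (SE 0.230, limma-voom adjusted p = 0.0166), and that adjusted p was 0.0979 to 0.108 without DMSO 2, DMSO 3, lenvatinib 2 or lenvatinib 3 and 0.252 with libraries 2 and 3 kept as pairs. Limma without the minimum of 1 FPKM gave Esm1 an adjusted p of 0.017 and Aplnr 0.0181, where 0.276% of all genes passed in the lower direction and 0.309% in the higher. In the voom fit, Esm1, Aplnr and Cd93 were the 3 genes of the list that passed, where 0.917% of all genes passed in the lower direction.

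Apln, the ligand of the receptor that Aplnr encodes and also a tip cell gene, read 0.719, 0.609 and 0.734 FPKM with DMSO and 0.514, 0.358 and 0.377 with lenvatinib. The lenvatinib libraries were all lower, with library 1 nearest to DMSO. Its voom log2 fold change was -0.73 (SE 0.226, adjusted p = 0.141). Ligand and receptor were thus lower in the same libraries, but only the receptor passed; whether they differ in their change was not tested.

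The matrix and secreted genes of this group were mixed. Nid2, the basement membrane protein nidogen-2, read 2.68, 3.49 and 3.19 FPKM with DMSO and 2.21, 1.93 and 2.12 with lenvatinib, a log2 fold change of -0.41 (SE 0.0978, limma adjusted p = 0.104). Igfbp3, an insulin-like growth factor binding protein, read 16.5, 11.7 and 11.9 FPKM with DMSO and 6.44, 9.69 and 9.03 with lenvatinib (limma adjusted p = 0.147). In Igfbp3 the libraries numbered 1 set both extremes. Lama4, a laminin chain of vessel basement membrane, overlapped at 8.04 ± 0.746 and 7.14 ± 1.58 FPKM (SD, n = 3 each). Fibroblasts also make matrix. The 7 fibroblast markers summed to 554 to 590 FPKM in the DMSO libraries and 339 to 402 FPKM in the lenvatinib libraries. With limma 5 of the 7 passed in the lower direction, against 0.934% of all genes tested. The part of fibroblasts in the values of Nid2, Igfbp3 and Lama4 was not tested.

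Dll4 and Hey1 belong to the Notch pathway. Dll4, the Notch ligand of tip cells, read 6.04, 6.13 and 5.46 FPKM with DMSO and 6.35, 4.87 and 5.0 with lenvatinib, with library 1 the highest of all and libraries 2 and 3 below every DMSO library. Hey1, a Notch target, read 1.09, 0.870 and 0.746 FPKM with DMSO and 0.683, 0.500 and 0.729 with lenvatinib. It was lower in every lenvatinib library, though the nearest libraries, at 0.746 and 0.729 FPKM, were close, and it did not pass in voom (adjusted p = 0.271).

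Rgcc, a cell cycle regulator responsive to hypoxia and VEGF, varied widely among the DMSO libraries. It read 5.15, 13.1 and 12.1 FPKM with DMSO and 6.09, 3.75 and 4.57 with lenvatinib. DMSO library 1, the library that differed in sex-linked transcripts, was among the lenvatinib values. The log2 fold change was -0.86 (SE 0.339, limma adjusted p = 0.214), and without DMSO library 1 it was -1.25 (adjusted p = 0.0494).

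Unc5b, a netrin receptor of tip cells that gut epithelium also expresses, was the exception in direction. Its values were 23.3, 22.6 and 21.1 FPKM with DMSO and 23.9, 25.9 and 26.2 with lenvatinib, a log2 fold change of 0.17 (SE 0.0662, limma adjusted p = 0.209). The libraries did not overlap, but the nearest were 23.3 and 23.9 FPKM. Angpt2, the angiopoietin released by sprouting endothelium, and Nos3, the endothelial nitric oxide synthase, overlapped at 1.27 to 2.13 and 0.672 to 1.24 FPKM over the 6 libraries, and in both lenvatinib library 1 was the highest.

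None of the 8 lymphatic genes separated the groups, and none of the 5 tested passed with limma or had an unadjusted p below 0.05; their median log2 fold change was 0.07. Lyve1, the hyaluronan receptor of initial lymphatics, read 8.24, 8.48 and 7.77 FPKM with DMSO and 10.2, 8.56 and 8.07 with lenvatinib. Most of the libraries lay close together, with lenvatinib library 1 above the rest. Its log2 fold change was 0.11, with a 95% interval of -0.12 to 0.34. Some tissue macrophages also carry Lyve1. The groups overlapped in Lyve1 while the macrophage markers above were lower, and the part of macrophages in its level was not tested.

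Pdpn, the glycoprotein podoplanin of lymphatic endothelium and fibroblasts, was split by library: 7.84, 7.31 and 8.35 FPKM with DMSO, but 9.46, 5.72 and 4.87 with lenvatinib. Mmrn1, multimerin-1, read 7.69, 5.24 and 4.90 FPKM with DMSO and 6.86, 5.51 and 6.22 with lenvatinib, and Reln, the secreted glycoprotein reelin, 1.89, 0.949 and 1.05 against 1.95, 1.63 and 1.71. In both genes DMSO library 1 was above DMSO libraries 2 and 3. Prox1 stayed low at 0.324 ± 0.0829 and 0.367 ± 0.0367 FPKM, and Nr2f2, the venous and lymphatic factor COUP-TFII, was at 3.52 ± 0.149 and 3.41 ± 0.669 (SD, n = 3 each). Tbx1 and Stab2 rested on 16 to 71 and 20 to 49 reads a library, too few to show a small difference.

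Endothelial genes outside the list were tested in the same fit, in which 0.934% of all genes passed in the lower direction and 1.1% in the higher. Of 38 other endothelial genes 29 were tested, and 1, Thbd, the anticoagulant receptor thrombomodulin, fell, from 16.3 ± 1.11 to 8.32 ± 1.82 FPKM (SD, n = 3 each; limma adjusted p = 0.0377). Kdr, the main VEGF receptor of blood endothelium, read 4.57, 3.46 and 3.78 FPKM with DMSO and 2.35, 1.31 and 1.46 with lenvatinib (limma adjusted p = 0.0608, voom 0.0452). Of 19 other VEGF-responsive or tip cell genes 15 were tested, and Kcne3, a potassium channel subunit that colon epithelium also expresses, fell from 31.3 ± 0.777 to 14.6 ± 1.51 FPKM, while Ankrd37, a target of hypoxia-inducible factor, rose from 4.14 ± 0.770 to 15.5 ± 6.50 (limma adjusted p = 0.00381 and 0.0438).

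Among 38 ligands, receptors and targets that act with the 44 genes, 25 were tested, of which 1 passed in each direction, against 0.934% lower and 1.1% higher of all genes tested. Vegfa, the ligand of KDR, rose from 8.14 ± 0.355 to 12.7 ± 1.03 FPKM and Id1, a target of BMP signalling through endoglin's receptor complex, fell from 103 ± 9.50 to 71.1 ± 0.828 (SD, n = 3 each; limma adjusted p = 0.0226 and 0.0305). Ntn1, the netrin that UNC5B binds, was at 6.93 ± 0.478 and 10.1 ± 1.63 FPKM and did not pass (limma adjusted p = 0.107).

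Markers of vessel-associated and blood cells did not follow the endothelial genes as a block. The 6 pericyte markers summed to 55.1 to 68.0 FPKM with DMSO and 59.7 to 71.7 with lenvatinib. None passed with limma, though 2 were higher at an unadjusted p below 0.05, where 7.49% of all genes tested were. The 5 erythroid markers, a sign of blood in the tissue, summed to 54.1 to 111 and 82.5 to 145 FPKM. DMSO library 1 had the lowest erythroid sum, and lenvatinib libraries 2 and 3 the highest. Mast cell markers summed to 203 to 224 FPKM with DMSO and 0.531 to 0.964 with lenvatinib.

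**Figure D4:**
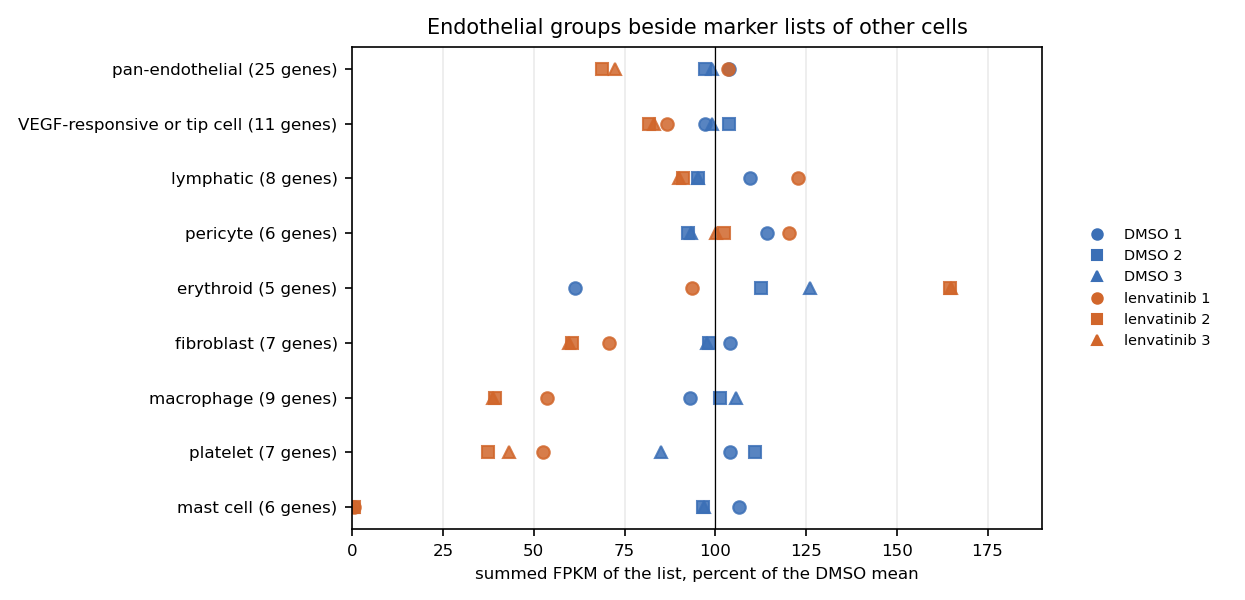
Summed FPKM of each list as a percent of its DMSO mean, 1 point per library, for the 3 endothelial groups and 6 marker lists of other cells. Macrophage, fibroblast, platelet and mast cell sums are lower in all 3 lenvatinib libraries, pericyte and lymphatic sums overlap, and the pan-endothelial sum is low in lenvatinib libraries 2 and 3 only.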

How the data were processed

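Per the labels' protocols, colon RNA was isolated with TRIzol and VAHTS Universal V10 reagents were used for the libraries. The authors deposited FPKM values for 25339 genes in 6 columns; per the submitters' processing notes, the tool was HTSeq, a read counter, and the genome build GRCm39. Aligner, annotation, strandedness and filters: not given in the sources used here. Per-library depth was recovered from the FPKM steps: 100.0% of the 23951 genes above 0 gave whole reads within 0.01 reads.

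The 3 DMSO and 3 lenvatinib libraries were grouped by the labelled treatment. All genes averaging 1 FPKM or more over the libraries were tested on log2(FPKM + 1), a scale that understates the change of low genes, with limma 3.58.1 in R 4.3.3 (trended, robust variance prior, two-sided, Benjamini-Hochberg, threshold 0.05). FPKM are not counts, so the recovered reads were tested only as alternatives, with limma's voom. Scripts were tested on simulated data. As no animal is named for a library, p-values reflect only the variation among these libraries, which may be technical. FPKM carry counting error as well, which is largest for genes with few reads.

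The members, gene lists and tests were chosen with earlier results of these data known. All 44 genes are accounted for; values in every library are given for those that separate the groups or that a paragraph turns on. From each other list at most 4 genes with the smallest unadjusted p are named, plus direct partners of a named gene. Alternatives changed the pseudocount, the filter, the scaling, the replicate structure and the libraries included. Promoters were matched by symbol to RefSeq on GRCm38.p6; no coordinates on the build of the files are given.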

Additional observations from a re-analysis of the deposited data

How the results depend on the processing

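Of the 31 genes tested, 1 passed lower and 0 higher, and of all genes tested 110 and 129. The count of endothelial genes lower became 2 with no filter (66 lower and 74 higher among all genes), 0 with a minimum mean of 5 FPKM, which leaves Cd93 untested, 0 with libraries 2 and 3 averaged (2 and 1 among all), 0 with those libraries as a pair (19 and 27), and 3 with voom on genes of 20 or more reads on average; scaling to the 5 endothelial genes gave 84 higher among all. Leaving out 1 library gave 0 to 15 endothelial genes lower and 0 to 1 higher, and 23 to 3319 lower and 22 to 1160 higher among all, the upper ends all without lenvatinib 1. A replicate block gave 0 endothelial genes lower, 11 lower and 18 higher among all. Deviations from the group means had correlations of -0.196, -0.159 and -0.151 between libraries with the same number. With 3 libraries a group, and libraries 2 and 3 of each nearly alike, these correlations cannot show whether the numbers pair the samples.

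Genes near 0 changed sign, and the cause was not tested. Quantile normalization gave Ecscr 0.0255, Mmrn2 0.037, Ptprb 0.0454 and Nr2f2 0.0684; averaging libraries 2 and 3 gave Pecam1 0.0033, Ecscr 0.0189 and Nr2f2 0.0011; the pair gave Ecscr 0.0106; scaling to the 5 genes gave Pecam1 0.0134, Mmrn2 0.01, Ptprb 0.0010 and Nr2f2 0.0249. With 1 library left out the ranges were -0.259 to 0.0219 for Pecam1, -0.0267 to 0.0866 for Tek, -0.16 to 0.17 for Vwf, -0.338 to 0.0149 for Esam, -0.35 to 0.10 for Ecscr, -0.208 to 0.026 for Mmrn2, -0.34 to 0.0082 for Ramp2, -0.0597 to 0.139 for Rasip1, -0.11 to 0.13 for Angpt2, -0.0372 to 0.242 for Mmrn1 and -0.167 to 0.027 for Nr2f2. Genes under 1 FPKM rest on few reads, which limits what they can show.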

Other observations

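Genes that mark vessel segments, from lists that are not part of the 44, gave the following values. Of 10 arterial genes 7 were tested, and 1, Gja5, which encodes the gap junction protein connexin 40 of arterial endothelium, fell (limma adjusted p = 0.00539), where 0.934% of all genes tested passed in the lower direction. At an unadjusted p below 0.05, 4 of the 7 were lower and 0 higher, where 14.5% and 7.49% of all genes tested were. Gja5 read 3.33, 3.38 and 3.75 FPKM with DMSO and 1.16, 1.38 and 1.41 with lenvatinib, so the groups were far apart. Gja4, another gap junction gene of arteries, read 2.64 ± 0.126 and 1.80 ± 0.265 FPKM (SD, n = 3 each) and did not pass (limma adjusted p = 0.107).

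Of 10 blood capillary genes 9 were tested and of 10 venous and venular genes 8. None passed with limma, where 0.934% of all genes passed lower and 1.1% higher. At an unadjusted p below 0.05, 1 capillary gene was lower and 1 venous or venular gene was higher. Of all genes tested, 14.5% were lower and 7.49% higher at that threshold. Ackr1, the chemokine-binding receptor of venules, read 2.47, 1.97 and 3.02 FPKM with DMSO and 3.93, 3.81 and 3.40 with lenvatinib, higher in every lenvatinib library (limma adjusted p = 0.131). Car4, a carbonic anhydrase of capillaries and of colon epithelium, read 69.8, 78.6 and 81.1 FPKM with DMSO and 68.9, 146 and 147 with lenvatinib, so only libraries 2 and 3 were high.

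Of 13 other lymphatic genes 6 were tested, and 1, Stab1, a scavenger receptor of lymphatic and sinusoidal endothelium and of macrophages, fell from 8.33 ± 0.329 to 2.80 ± 0.296 FPKM (SD, n = 3 each; limma adjusted p = 0.00165). Macrophage markers were lower in the same libraries, and their part in the value of Stab1 was not tested. Among all genes tested 0.934% passed in the lower direction. At an unadjusted p below 0.05, 3 of the 6 other lymphatic genes tested were lower and 0 higher. At that threshold 14.5% of all genes tested were lower and 7.49% higher.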
